A study of Mus musculus with 4 samples.

Results

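Syndecans and glypicans are core proteins that carry heparan sulfate at the cell surface, and the 6-O-endosulfatases edit those chains. The account below covers 10 of their genes, chosen by symbol out of 49997 in the count tables: the syndecans Sdc1, Sdc2, Sdc3 and Sdc4, the glypicans Gpc1, Gpc2, Gpc4 and Gpc6, and the sulfatases Sulf1 and Sulf2. Of these, 9 passed the filter on low counts and were among the 12783 genes tested, and Sulf1 is given by its counts alone. The study compared wild-type iMOP cells (an immortalized line of multipotent otic progenitors of the mouse) kept proliferating with neurons derived from the same line, and its title concerns the chromatin remodeller CHD7 at domain boundaries. Total RNA depleted of ribosomal RNA gave 4 stranded libraries, replicates 1 and 2 of each group. Per the labels' protocols, proliferating cultures received DMEM/F12 with B27, carbenicillin and bFGF (basic fibroblast growth factor, FGF2) at 20 ng/ml, while neuron cultures received Neurobasal medium with N21, L-glutamine and K03861 at 1 µM, a compound that inhibits CDK2, a kinase of the cell cycle. Both groups come from 1 cell line, and medium, bFGF, K03861 and cell state change together, so their parts in any difference cannot be told apart. The labels call the libraries biological replicates without saying whether they came from separate cultures, so p-values measure the spread between these libraries, which may be technical.

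Heparan sulfate is a sulfated sugar chain that binds FGFs, other growth factors and matrix proteins, and FGF2 needs it to form a stable complex with its receptor. Syndecans span the membrane and carry chains on an extracellular domain that can be shed, whereas glypicans are held to the membrane by a lipid anchor. SULF1 and SULF2 are secreted or surface-bound enzymes that remove 6-O-sulfate groups from finished chains and so change which ligands the chains hold. In the nervous system these molecules take part in progenitor growth, axon guidance and synapse formation.

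Total counts were 7446361 to 14484011 per library, and one 18S ribosomal RNA row took 53.3% to 76.1% of them. Levels are therefore given as CPM, read counts scaled to library sizes that the TMM method had adjusted. Proliferating replicate 2 stood apart: across 12783 tested genes its log2 CPM correlated with proliferating replicate 1 at r = 0.825, while proliferating replicate 1 and neuron replicate 1 correlated at r = 0.918. Genes are not independent replicates, so these values only describe the libraries. Of 6 otic progenitor markers, 2 were tested, and the defining markers Pax2 and Pax8 were at 0 counts in every library. Sox2 had 362 and 355 counts while proliferating and 402 and 216 as neurons. Eya1, the other one tested, had 62 and 27 against 103 and 57 and was higher in both neuron libraries (log2 fold change 0.72, SE 0.51). The summed level of 9 neuron markers was 138 and 324 CPM while proliferating and 179 and 322 CPM as neurons. Its groups overlapped, with Tubb3 alone at 193 CPM in the highest library, proliferating replicate 2. Of the 8 neuron markers tested 0 were called by edgeR, 6 had a log2 fold change above 0, and the median was 0.40. Elavl4 (log2 fold change 1.5, SE 0.57) and Map2 (0.49, SE 0.42) were higher in both neuron libraries. For the other tested neuron markers the groups overlapped and the 2 pairs went opposite ways. Tubb3 (-0.67, SE 1.02) and Syt1 (-0.18, SE 0.88) had log2 fold changes below 0. The 6 Schwann and oligodendrocyte lineage markers summed to 8.11 and 13.8 CPM while proliferating and 5.70 and 10.3 CPM as neurons. The 2 tested, Pmp22 (log2 fold change -0.62, SE 0.94) and Cnp (-0.43, SE 0.52), had overlapping groups. Of 8 fibroblast markers, Col1a2, Pdgfrb and Postn had no count in any library, and the list summed to 7.93 to 17.9 CPM. Most of that sum was Pdgfra, the only one tested, at 9.75 and 8.91 CPM while proliferating and 16.8 and 7.12 CPM as neurons. The 5 endothelial markers summed to 0.102 to 1.21 CPM and the 5 macrophage markers to 0.712 to 1.43 CPM, with Ptprc and Adgre1 at 0 throughout.

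Of the 10 genes, Sdc3, Sdc4 and Sulf2 were lower in both neuron libraries than in either proliferating library, by about 6- to 11-fold on the fitted means. Sdc1, Sdc2 and the 4 glypicans had overlapping groups. Sulf1 was at the edge of detection, with more counts in the neuron libraries. None of these differences passed the test: edgeR's quasi-likelihood test called 0 of the 9 tested genes at an adjusted p-value under 0.05, against 0.00% of all tested genes in each direction. At an unadjusted p-value under 0.05 it picked 3 of the 9, all lower in neurons, where 2.51% of all tested genes were lower and 0.915% higher by that measure. Groups that do not overlap, with neurons lower, were found for 3 of the 9 and for 14.5% of all tested genes. The median log2 fold change of the 9 was -0.18, against 0.024 over all genes tested. DESeq2 called 1 of the 9, Sdc4, where it called 0.375% of all tested genes lower in neurons and 0.0939% higher. Without the filter on low counts, edgeR gave a gene's own spread between libraries no weight (prior degrees of freedom infinite, against 5.38 in the main fit). In that fit edgeR called Sdc3, Sdc4 and Sulf2, with 0.472% of 25859 genes called lower and 0.159% higher. Without proliferating replicate 1 it called Sdc3 and Sdc4, with 0.829% of all tested genes called lower and 0.422% higher. With replicate number added to the model, edgeR called 0 of the 9, with 0.0235% of all tested genes called lower.

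**Figure D1:**
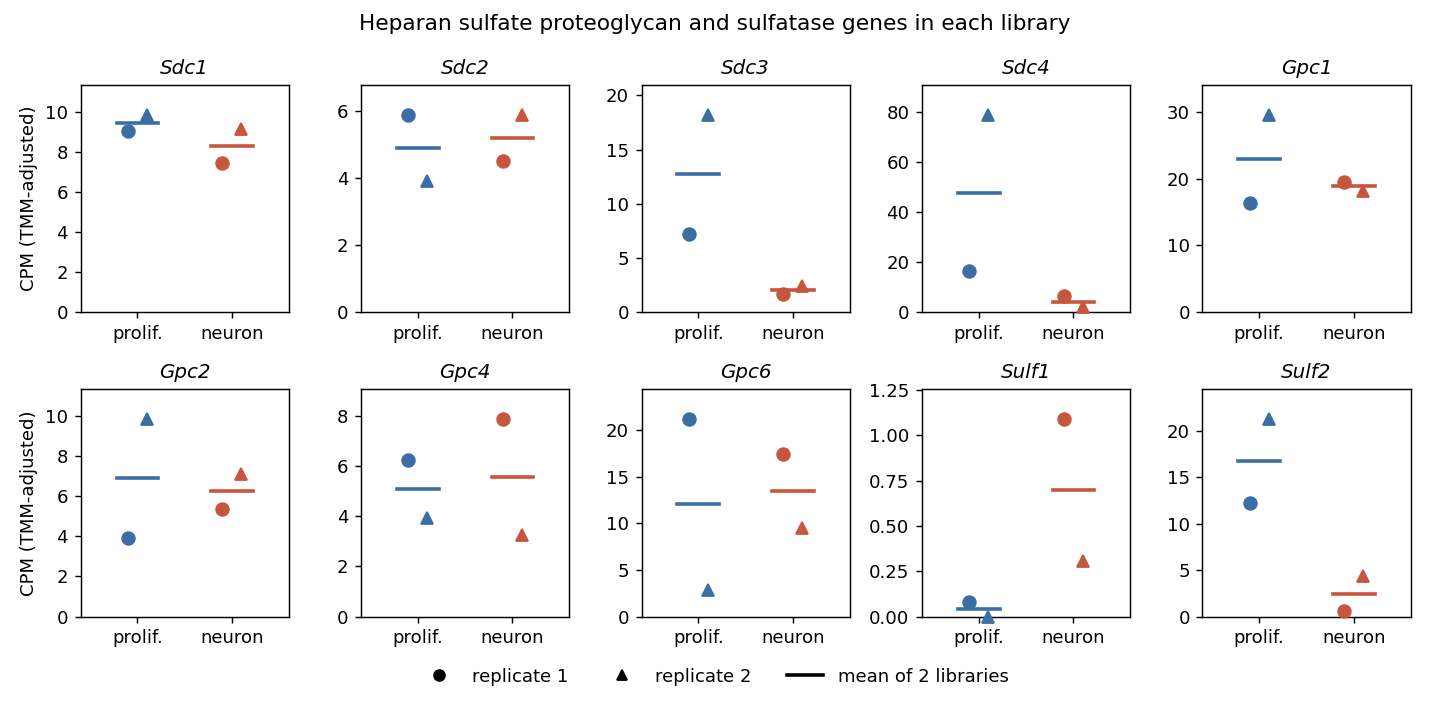
TMM-adjusted CPM of the 10 genes in each library, on a linear axis that starts at 0 and is scaled for each gene. Circles are replicate 1, triangles replicate 2 and bars the mean of the 2 libraries of a group. Sdc3, Sdc4 and Sulf2 are the genes whose 2 neuron libraries both lie below the proliferating ones, and Sdc4 reaches 79.1 CPM in proliferating replicate 2.

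Several of these genes, and several of the proteoglycan genes below, are also expressed by astrocytes and radial glia, whose markers are given here. Of 6 such markers 5 were tested, and 3 of those 5 had both neuron libraries lower. Their summed level was 175 and 190 CPM while proliferating, and 86.1 and 25.4 CPM as neurons. Gfap had 181 and 89 counts while proliferating and 1 and 2 as neurons, with an edgeR adjusted p-value of 0.11 that was 0.0158 with the replicate block. Slc1a3 had 1124 and 357 against 563 and 158. The gap in the summed markers was larger between the replicate 2 libraries. Of the 5 tested markers, Fabp7, Aldoc and Slc1a3 shared this, and Gfap and Aqp4 did not. For replicates 1 and 2 the log2 differences were -0.33 and -5.47 for Fabp7, 0.14 and -3.32 for Aldoc and -0.96 and -1.57 for Slc1a3. They were -5.76 and -4.94 for Gfap and -3.39 and 0.60 for Aqp4, and the groups of Aqp4 and Aldoc overlapped. Sdc4 and Sdc3 differed more between the replicate 2 libraries, whereas Sulf2 differed more between the replicate 1 libraries. In bulk RNA, fewer cells of a type and less RNA per cell cannot be told apart, and the part of these cells in the levels of Sdc3, Sdc4 and Sulf2 was not tested.

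Sdc4 encodes syndecan-4, which works with integrins at focal adhesions and signals through protein kinase C alpha. The gene (gene ID 20971) lies at chr2:164424247-164443188 in RefSeq on GRCm38.p6, the assembly that matches the mm10 build named in the submitters' processing notes. Replicates 1 and 2 gave 200 and 586 counts while proliferating, and 78 and 20 as neurons. The groups did not overlap, with proliferating replicate 2 the highest library and neuron replicate 2 the lowest. Its level averaged 47.7 ± 44.3 CPM (SD, n = 2) in the proliferating group and 4.29 ± 3.19 CPM (SD, n = 2) in the neuron group. This gave a log2 fold change of -3.46 (SE 0.91), or 11-fold lower in neurons, and edgeR put the adjusted p-value at 0.868. Between same-numbered libraries the log2 difference was -1.30 for replicate 1 and -5.15 for replicate 2. When proliferating replicate 2 was left out, the log2 fold change was -1.92. DESeq2 gave -3.49 with an adjusted p-value of 0.00417. Over all alternatives run the adjusted p-value (edgeR, DESeq2 or limma) lay between 2.9e-05 and 0.99994.

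Sdc3 encodes syndecan-3, the syndecan best known from developing neurons and from glial precursors (gene ID 20970, chr4:130792537-130826318). Replicates 1 and 2 gave 88 and 135 counts while proliferating, and 20 and 24 as neurons. Both neuron libraries were low and close to each other, and both pairs showed a difference of the same direction. Its level averaged 12.7 ± 7.79 CPM (SD, n = 2) in the proliferating group and 2.06 ± 0.539 CPM (SD, n = 2) in the neuron group. This gave a log2 fold change of -2.62 (SE 0.63), or 6.14-fold lower in neurons, and edgeR put the adjusted p-value at 0.813. Between same-numbered libraries the log2 difference was -1.98 for replicate 1 and -2.81 for replicate 2. When proliferating replicate 2 was left out, the log2 fold change was -1.81, and over all alternatives the adjusted p-value lay between 0.0206 and 0.99997. In GENCODE M21 the antisense gene Gm26716 covers 6.93% of its exons, and whether the counting used strand is not given in the sources used here.

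Sulf2 encodes the second of the extracellular 6-O-endosulfatases (gene ID 72043, chr2:166073899-166155683), on the same chromosome as Sdc4 and 1631 kb away. Replicates 1 and 2 gave 150 and 158 counts while proliferating, and 7 and 43 as neurons. The proliferating libraries were alike in counts but not in level, at 12.3 and 21.3 CPM. The neuron libraries were both lower, at 0.587 and 4.37 CPM, and also differed from each other. Its level averaged 16.8 ± 6.39 CPM (SD, n = 2) in the proliferating group and 2.48 ± 2.68 CPM (SD, n = 2) in the neuron group. This gave a log2 fold change of -2.77 (SE 0.88), or 6.82-fold lower in neurons, and edgeR put the adjusted p-value at 0.9998. Between same-numbered libraries the log2 difference was -4.00 for replicate 1 and -2.24 for replicate 2. Leaving out neuron replicate 1 gave -1.98 and leaving out neuron replicate 2 gave -4.81, and over all alternatives the adjusted p-value lay between 0.00857 and 0.99997. Exons of Ncoa3 on the other strand cover 2.62% of its exons.

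Sulf1, which encodes the paralogous enzyme (gene ID 240725, chr1:12692197-12861192), had 1 count and 0 counts while proliferating, and 13 and 3 as neurons. It was not tested, since it failed the filter on low counts. On summed counts over adjusted library sizes the neuron level was 14.4 times the proliferating level, with a 95% counting interval of 2.24 to 605 (exact binomial), and 3 of the 4 libraries were at or below 3 counts. The make-up of the sulfatase counts therefore differed between libraries. Sulf1 was 0.662% of them in the first proliferating library (95% Wilson interval 0.117% to 3.66%) and 0 of 158 in proliferating replicate 2, which allows a share of up to 1.90% (3 counts of 158, a limit of another kind than the Wilson intervals). It was 65% in neuron replicate 1 (43.3% to 81.9%, 20 counts in all) and 6.52% in neuron replicate 2 (2.24% to 17.5%). These intervals, and all others here, cover counting error only, since reads without molecular identifiers are not independent molecules.

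The windows before the transcription starts of the 3 genes that were lower in both neuron libraries are printed to show what they hold and where they differ. RefSeq on GRCm38.p6 had promoter entries for 6 of the 10 genes: Sdc1, Sdc3, Sdc4, Gpc2, Gpc4 and Sulf2. Each sequence gives the 250 bases before the annotated start, 5′ to 3′ on the strand of the gene, with the GC box GGGCGG (read on either strand, so also CCGCCC) in capitals. Sdc4 is on the minus strand at chr2:164443189-164443438, and Sdc3 on the plus strand at chr4:130792287-130792536. Sulf2 has 2 listed starts 398 bases apart on the minus strand, with windows at chr2:166155684-166155933 (upstream) and chr2:166155286-166155535 (downstream).
Sdc4: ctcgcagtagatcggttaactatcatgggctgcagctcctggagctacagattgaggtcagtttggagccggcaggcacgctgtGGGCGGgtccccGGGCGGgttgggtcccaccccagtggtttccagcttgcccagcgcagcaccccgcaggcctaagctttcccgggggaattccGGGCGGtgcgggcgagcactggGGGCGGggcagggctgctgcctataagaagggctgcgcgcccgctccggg
Sdc3: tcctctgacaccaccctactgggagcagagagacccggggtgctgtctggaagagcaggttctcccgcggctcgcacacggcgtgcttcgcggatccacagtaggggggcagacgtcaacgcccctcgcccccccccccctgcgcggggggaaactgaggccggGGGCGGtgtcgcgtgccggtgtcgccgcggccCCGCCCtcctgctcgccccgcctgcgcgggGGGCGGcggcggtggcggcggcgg
Sulf2 upstream start: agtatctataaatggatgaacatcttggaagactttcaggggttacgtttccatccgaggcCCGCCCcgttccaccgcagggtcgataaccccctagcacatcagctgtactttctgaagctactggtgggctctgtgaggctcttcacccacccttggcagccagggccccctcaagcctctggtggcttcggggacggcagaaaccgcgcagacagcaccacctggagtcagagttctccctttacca
Sulf2 downstream start: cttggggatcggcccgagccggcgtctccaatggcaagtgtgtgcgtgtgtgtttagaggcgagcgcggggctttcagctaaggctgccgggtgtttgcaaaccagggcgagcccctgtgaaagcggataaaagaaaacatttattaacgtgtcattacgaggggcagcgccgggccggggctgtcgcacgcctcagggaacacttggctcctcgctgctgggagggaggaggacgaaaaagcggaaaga
The Sdc4 window held 4 GC boxes and the Sdc3 window 3. The upstream Sulf2 window held 1 and the downstream one 0. At least 1 was found in 32.7% of all 32851 RefSeq promoter windows of this length. The windows of Sdc1 and Gpc2, whose groups overlapped, held 3 each, and that of Gpc4 held 1, so the motif did not separate the genes that were lower. The ETS core CCGGAA (in 12% of all windows, either strand) occurred once, in the Sdc4 window, 76 bases before the start, where it overlaps a GC box. TATAAA (12.4%) occurred once, in the upstream Sulf2 window, 244 bases before that start. CCAAT (33.8%) occurred once in the printed windows, in the downstream Sulf2 window, 223 bases before that start. The Sdc1 window held 1 CCAAT and the Gpc2 window 2. The EGR motif GCGNGGGCG (4.70%), the AP-1 motif TGANTCA (6.75%) and the E-box CACGTG (6.02%) were in none of the 4 printed windows. GC content was 68.0% for Sdc4, 76.4% for Sdc3 and 57.2% and 60.0% for the Sulf2 windows, against a median of 52.4% over all windows. A match is a description of these letters and no evidence of binding.

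The other 2 syndecan genes, Sdc1 and Sdc2, had groups that overlapped. Sdc1, which encodes the syndecan typical of epithelia and plasma cells (chr12:8771396-8793716), had 110 and 73 counts while proliferating and 89 and 90 as neurons. Its level averaged 9.43 ± 0.595 CPM (SD, n = 2) in the proliferating group and 8.31 ± 1.19 CPM (SD, n = 2) in the neuron group, with a log2 fold change of -0.18 (SE 0.47, edgeR adjusted p-value 0.9998). Its groups overlapped except where levels were scaled to the counts outside the 18S row, when both neuron libraries were lower. Sdc2, which encodes a syndecan of mesenchymal cells and dendritic spines (chr15:32920723-33034721), had 72 and 29 counts while proliferating and 54 and 58 as neurons. Its log2 fold change was 0.079 (SE 0.51, edgeR adjusted p-value 0.9998), and its pairs went opposite ways, at -0.37 and 0.57. With library size alone the value for Sdc2 was -0.36, in a scaling that shifted the median of all genes by -0.29. With SEs of this size the values do not show that the levels were equal.

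Shares within a family compare genes inside one library and do not depend on the scaling. While proliferating, the Sdc4 part of all syndecan counts was 42.6% in replicate 1 (95% Wilson interval 38.2% to 47.1%) and 71.2% in replicate 2 (68.0% to 74.2%). As neurons it was 32.4% in replicate 1 (26.8% to 38.5%) and 10.4% in replicate 2 (6.84% to 15.5%). Sdc3 made up 18.7% and 16.4% while proliferating and 8.30% and 12.5% as neurons. Sdc1 made up 36.9% and 46.9% as neurons and 23.4% and 8.87% while proliferating. These are shares of reads, which favour longer transcripts: per length of exon, Sdc4 was 42.2% and Sdc1 32.2% in neuron replicate 1. Summed over the 4 genes, the syndecan level was 38.5 and 111 CPM while proliferating and 20.2 and 19.5 CPM as neurons. Without Sdc4 the sums were 22.1 and 32 CPM against 13.7 and 17.5 CPM, so the order of the groups was the same with a smaller gap. Those sums still include Sdc3, at 7.21 and 18.2 CPM against 1.68 and 2.44 CPM, whereas the groups of Sdc1 and Sdc2 overlapped.

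**Figure D2:**
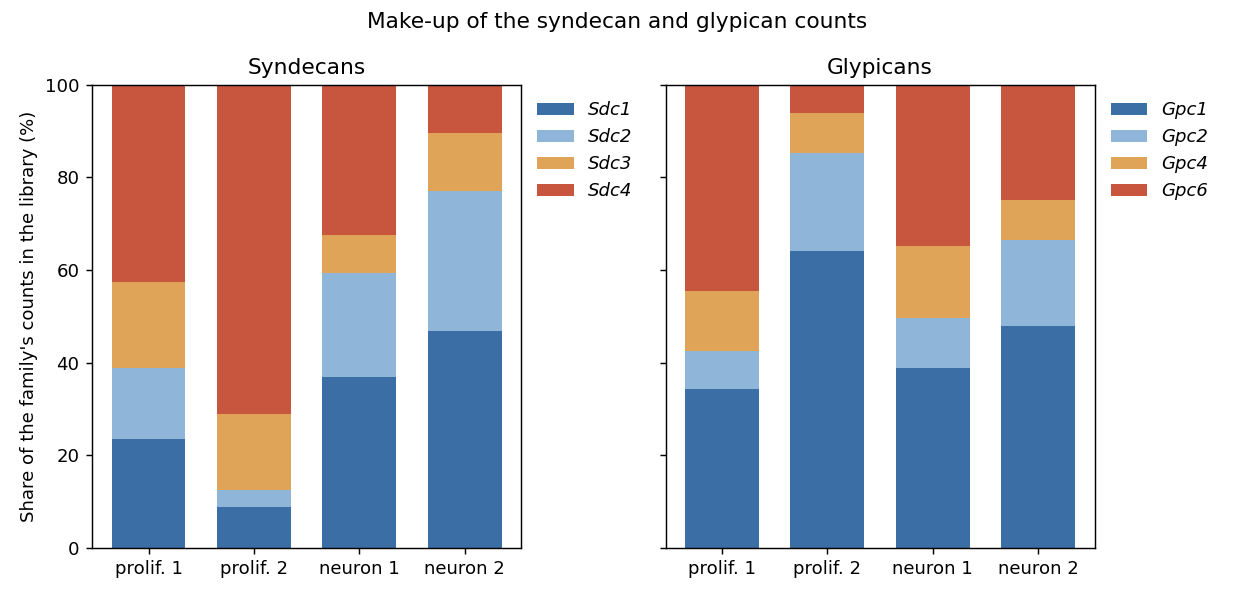
Share of each gene in the counts of its family, in percent, for the 4 libraries, syndecans on the left and glypicans on the right. Of the syndecan counts Sdc4 takes 71.2% in the second proliferating library and 10.4% in the second neuron library, and Gpc6 takes 6.14% of the glypican counts in proliferating replicate 2 against 24.9% to 44.5% in the other 3 libraries.

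For each of the glypicans the groups overlapped and the 2 pairs went opposite ways. Gpc1, the glypican with wide expression in brain (chr1:92831645-92860211), had 199 and 219 counts while proliferating and 233 and 179 as neurons, a log2 fold change of -0.28 (SE 0.49, edgeR adjusted p-value 0.9998). Its pairs gave 0.26 and -0.69, and the value was 0.21 without proliferating replicate 2. Exons of Ankmy1 on the other strand cover 18.9% of its exons. Gpc2, also named cerebroglycan and known from neurons that are still migrating or growing axons (chr5:138273657-138280026), had 48 and 73 counts while proliferating and 64 and 70 as neurons. Its log2 fold change was -0.13 (SE 0.58, edgeR adjusted p-value 0.9998), and the neuron libraries lay between the proliferating ones on the CPM scale. A same-strand transcript, Gm43720, shares 55.6% of its exons, so reads may have been split or left out and its level is uncertain.

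Gpc4 and Gpc6 encode glypicans of neural progenitors and astrocytes that are known for promoting synapse formation. Gpc4 (chrX:52051007-52164923) had 76 and 29 counts while proliferating and 94 and 32 as neurons. Its levels followed the replicate number, with 6.23 and 7.89 CPM in the replicate 1 libraries and 3.91 and 3.25 CPM in the replicate 2 libraries, and its log2 fold change was 0.13 (SE 0.60, edgeR adjusted p-value 0.9998). Gpc6 (chr14:116924920-117979529) had 259 and 21 counts while proliferating and 208 and 93 as neurons. Proliferating replicate 2 was the low library, at 2.83 CPM, and the other 3 had 9.45 to 21.2 CPM. The fitted log2 fold change of Gpc6 was 0.15 (SE 0.86, edgeR adjusted p-value 0.9998), with -0.28 for replicate 1, 1.67 for replicate 2, and -0.65 when proliferating replicate 2 was left out. With 1 library of each kind in a pair, the difference between pairs could not be tested. Summed over the 4 genes, the glypican level was 47.7 and 46.2 CPM while proliferating and 50.2 and 38 CPM as neurons, so the sums overlapped between the groups.

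**Figure D3:**
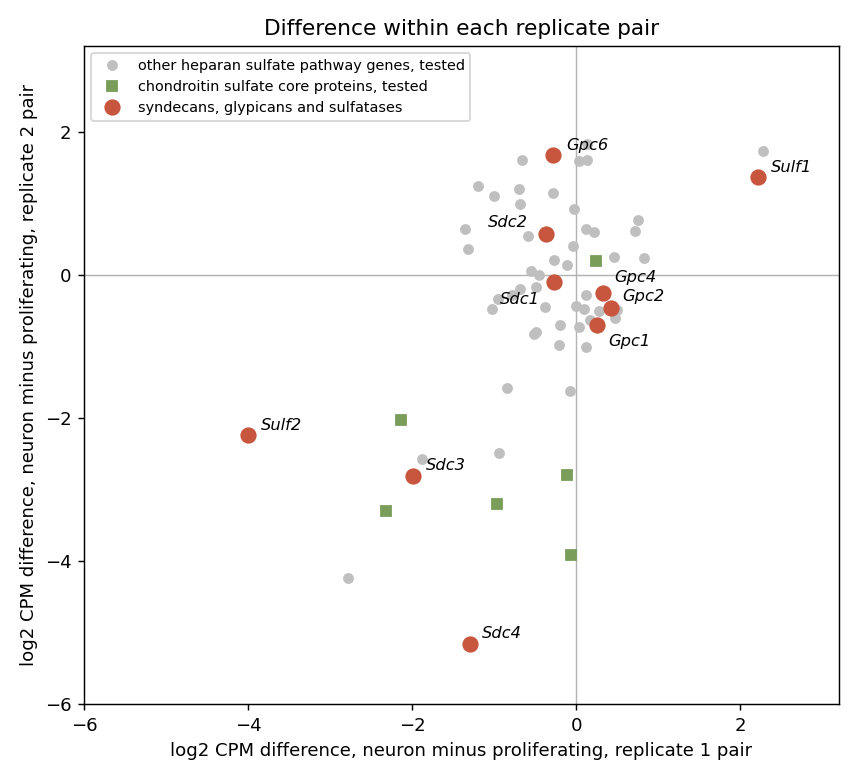
Log2 CPM difference, neuron minus proliferating, in the replicate 1 pair (x) and the replicate 2 pair (y). Red points are the 10 genes, grey points the other tested heparan sulfate pathway genes and green squares the tested chondroitin sulfate core proteins. Sdc3, Sdc4 and Sulf2 lie below 0 on both axes, and the 4 glypicans have opposite signs in the 2 pairs.

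Levels were compared between genes per length, as CPM per kilobase of the exons in GENCODE M21. In proliferating cells Sdc4 was first in both libraries, at 6.43 and 31.1 CPM per kilobase. In neurons Gpc1 was first in both on this scale, at 3.79 and 3.53 CPM per kilobase, while Sdc4 was at 2.57 and 0.798. Sdc3 was at 1.20 and 3.04 CPM per kilobase in proliferating cells and 0.280 and 0.407 in neurons, and Sulf2 was at 2.09 and 3.63 against 0.10 and 0.745. Sulf1 was last in all 4 libraries. Between first and last, the places of Sdc1, Sdc2, Gpc2, Gpc4 and Gpc6 changed with the library. The deposited RPKM values keep Sdc4 first in proliferating cells, but in neurons they put Sdc4 first in replicate 1 (RPKM 3.35) and Sdc2 first in replicate 2 (RPKM 1.21), so the neuron order depends on the lengths used. The gene lengths they imply are far above the exon lengths for some genes, at 40126 against 6425 bases for Gpc6 and 30674 against 5871 for Sulf2, and close to them for Sdc4, at 2460 against 2547. Ratios of 1 gene between libraries are not affected by that.

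Other genes linked to heparan sulfate gave the setting: metabolic enzymes and transporters, other core proteins, shedding enzymes and cytoplasmic partners of syndecans. Of 69 genes in 6 lists, 49 were tested, 0 were called higher and 0 lower (edgeR, adjusted p-value under 0.05), and at an unadjusted p-value under 0.05 there was 1 higher and there were 2 lower. Groups did not overlap for 13 with neurons lower and for 7 with neurons higher, against 14.5% and 12.9% of all tested genes. Their median log2 fold change was -0.18.

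Among 9 other core proteins that can carry heparan sulfate, 6 were tested, 3 of them with both neuron libraries lower and 1 higher. Cd44, a hyaluronan receptor with splice forms that carry chains, had 525 and 914 counts while proliferating and 286 and 403 as neurons, a log2 fold change of -1.36 (SE 0.62) that was -0.41 when proliferating replicate 2 was left out. Agrn encodes agrin, which organises the neuromuscular junction, and had 700 and 860 counts against 650 and 368, with pair differences of -0.073 and -1.63. Hspg2 encodes the basement membrane protein perlecan and had a log2 fold change of -0.65 (SE 0.44). Col18a1, a basement membrane collagen, had one of 0.61 (SE 0.69). All 4 had an edgeR adjusted p-value of 0.9998, and with library size alone the groups of Hspg2 and Col18a1 overlapped.

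Among the enzymes that start and extend the chain, Xylt1 was lower and Pxylp1 higher in both neuron libraries. Xylt1 encodes a xylosyltransferase that attaches the first sugar to the core protein, and it had 21 and 54 counts while proliferating and 1 and 2 as neurons. On summed counts its proliferating level was 27.7 times the neuron level, with a 95% counting interval of 9.13 to 138 (exact binomial), and its edgeR adjusted p-value was 0.775. Xylt1 was called by DESeq2 (adjusted p-value 0.0196), by edgeR without the filter on low counts (0.000446) and by edgeR without proliferating replicate 1 (0.0191). Its fitted log2 fold change was -4.88, and -3.52 when proliferating replicate 2 was left out. Its paralog Xylt2 had 47 and 71 counts against 52 and 60, with overlapping groups. Pxylp1 encodes the phosphatase that removes phosphate from that first xylose, and it had 8 and 23 counts while proliferating and 47 and 106 as neurons, a log2 fold change of 2.01 (SE 0.85, edgeR adjusted p-value 0.9998). Fam20b, the kinase that adds the phosphate, had overlapping groups and a log2 fold change of -0.30 (SE 0.53). The polymerase genes Ext1 and Ext2 had log2 fold changes of -0.22 (SE 0.47) and -0.43 (SE 0.48). Extl3, which starts the heparan sulfate chain, had one of -0.68 (SE 0.49), and Extl2, which can end it, one of 0.43 (SE 0.47). Of the 11 tested genes of this list, 4 had both neuron libraries lower and 2 higher. With library size alone the groups of Ext1, Ext2 and Extl2 overlapped, whereas Xylt2 and Fam20b had both neuron libraries lower. The groups of Ext1 overlapped in every scaling run except TMM, where its replicate 1 libraries were at 9.34 CPM while proliferating and 9.31 CPM as neurons.

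Among the chain modification enzymes, both neuron libraries were lower for the 3-O-sulfotransferase genes Hs3st3a1 and Hs3st3b1 and for Ndst1, and higher for Glce. Hs3st3b1 had 44 and 25 counts while proliferating and 10 and 4 as neurons, a log2 fold change of -2.45 (SE 0.70, edgeR adjusted p-value 0.959), and both pairs had the same direction, at -1.88 and -2.57. Hs3st3a1, a near paralog, had 12 and 15 counts against 5 and 2. Antisense exons of F930015N05Rik cover 32.9% of Hs3st3a1, so its few counts are uncertain. The genes for 6-O-sulfotransferases, which add the group that the sulfatases remove, did not separate the groups: Hs6st1 had 169 and 230 counts against 230 and 200, and Hs6st2 had 134 and 26 against 80 and 82. The 2-O-sulfotransferase gene Hs2st1 had a log2 fold change of -0.023 (SE 0.55). Ndst1, the N-deacetylase and N-sulfotransferase that acts first, had one of -0.62 (SE 0.46), and Glce, the epimerase, one of 0.87 (SE 0.54), and with library size alone the groups of both overlapped. Those of Glce also overlapped when levels were scaled to the counts outside the 18S row. Of 16 genes in this list 8 were tested, and 4 (Hs3st1, Hs3st2, Hs3st4 and Hs3st6) were at 0 in every library.

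Genes for precursors, breakdown and binding partners included 0 that passed the test. Of 8 precursor genes, Uxs1, which makes UDP-xylose, and the sulfate transporter gene Slc26a2 had both neuron libraries higher, with log2 fold changes of 0.80 (SE 0.52) and 0.80 (SE 0.69). Slc35b3, a transporter of the sulfate donor PAPS, had both lower, at -0.70 (SE 0.54). Of 9 tested genes for chain breakdown and shedding, 0 had groups that did not overlap with TMM scaling. Heparanase (Hpse) was not tested, with 8 counts and 1 count while proliferating and 0 and 2 as neurons. Among the cytoplasmic partners of syndecans, Sdcbp (syntenin) and Prkca (protein kinase C alpha, a partner of syndecan-4) had both neuron libraries lower, with log2 fold changes of -0.46 (SE 0.46) and -0.78 (SE 0.48). Tiam1, an activator of the GTPase Rac that binds syndecan-1, had both higher, at 0.36 (SE 0.44). With library size alone the groups of all 6 of these genes overlapped, and none passed the edgeR test (adjusted p-value 0.9998 for each). Those of Slc26a2 also overlapped when levels were scaled to the counts outside the 18S row.

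**Figure D4:**
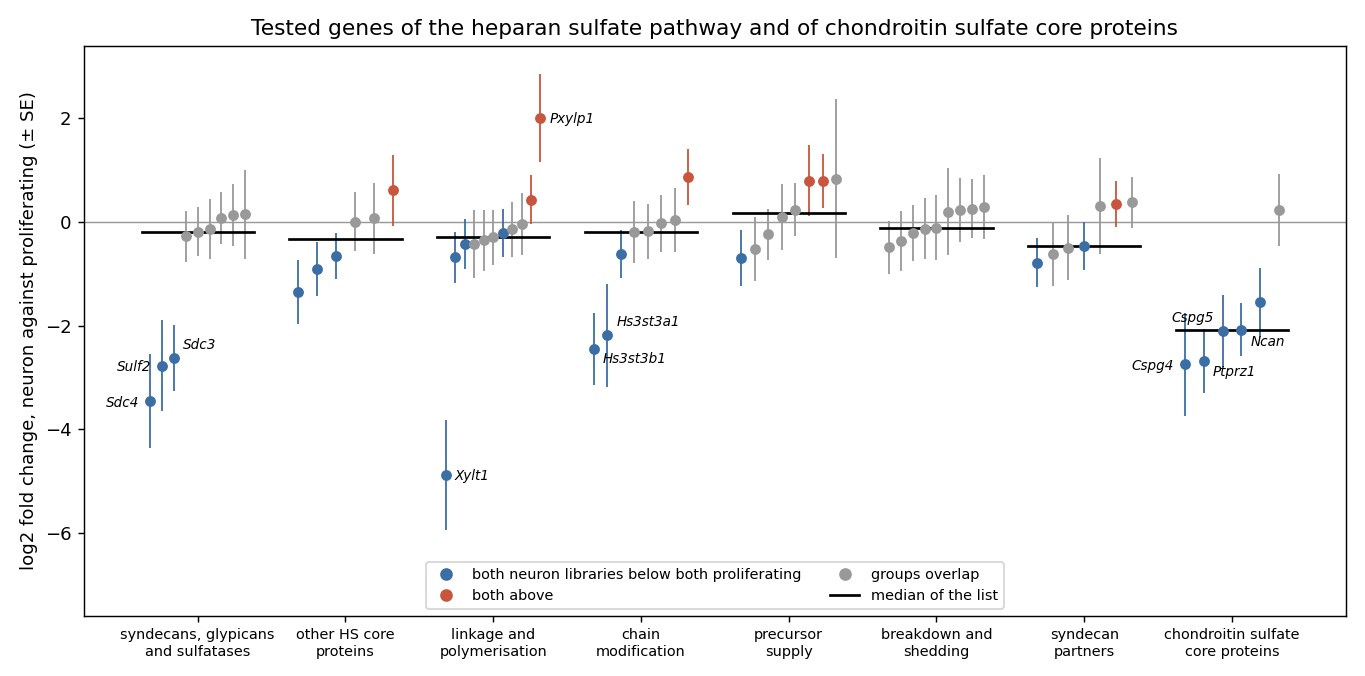
Log2 fold change of each tested gene (neuron against proliferating, edgeR, error bars ± SE) by list, with the median of each list as a bar. Blue points have both neuron libraries below both proliferating ones, red points have both above, and grey points have groups that overlap. Sdc4, Sulf2 and Sdc3 stand well below the 6 other tested genes of their list, and the chondroitin sulfate core proteins have the lowest median, at -2.09.

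Chondroitin sulfate proteoglycans, which carry the other major chain built on the same linkage sugars, had a lower median than the heparan sulfate lists. Of 9 core protein genes, 6 were tested and 5 had both neuron libraries lower, against 14.5% of all tested genes, with a median log2 fold change of -2.09. Ncan (neurocan) had 1776 and 1707 counts while proliferating and 392 and 552 as neurons, a log2 fold change of -2.08 (SE 0.51, edgeR adjusted p-value 0.813). Ptprz1, a receptor phosphatase of progenitors and glia, had 684 and 303 counts against 132 and 39, a log2 fold change of -2.68 (SE 0.62, edgeR adjusted p-value 0.775). DESeq2 called Ncan (adjusted p-value 0.0371) and Ptprz1 (0.00766), where it called 0.375% of all tested genes lower in neurons. Without the filter on low counts edgeR called Ncan (adjusted p-value 0.0236), Ptprz1 (0.00258) and Cspg4 (0.0135). That fit called 0.472% of 25859 genes lower and gave a gene's own spread between libraries no weight. With 1 library left out the log2 fold change lay between -2.51 and -1.71 for Ncan and between -3.65 and -2.13 for Ptprz1. Bcan, Cspg5 and Cspg4 had log2 fold changes of -1.55, -2.10 and -2.75, of which Bcan and Cspg4 were close to 0 between the replicate 1 libraries, at -0.12 and -0.061. Without proliferating replicate 2 the log2 fold change of Cspg4 was -0.41. Vcan (versican) had overlapping groups, with a log2 fold change of 0.23 (SE 0.69) and, with library size alone, -0.10. The median of the chondroitin sulfate list and that of the heparan sulfate lists were not tested against each other.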

How the data were processed

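Gene counts and RPKM values of 4 mouse cell culture libraries were used. HISAT2, SAMtools, featureCounts, DESeq2 and deepTools 3.4.3 and the build mm10 are named in the submitters' processing notes, without their roles, and annotation, strand setting and treatment of reads with several matches are not given in the sources used here. Whole-number read counts per gene were deposited, and the authors' RPKM values equal these counts over the column total, 18S row included, and 1 length per gene (equal in all libraries for 21343 of 21343 genes, relative tolerance 1e-06). Groups and replicate numbers come from the titles. The main test was edgeR 4.0.16 (R 4.3.3) with TMM factors, a filterByExpr filter at 10 counts (15 in total), and then the functions estimateDisp, glmQLFit and glmQLFTest on the 12783 genes kept, two-sided, with Benjamini-Hochberg adjustment and a threshold of 0.05. SD is over 2 libraries. For 1 value, an exact permutation test of 2 libraries against 2 has a smallest two-sided p of 0.333, so none was run. Pair differences use log2 CPM (prior count 2) and are untested.

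Both libraries numbered 2 have "set 2" in their titles, so numbers were taken to mark a shared set, of unstated kind, and deviations of same-numbered libraries from their group means correlated at r = 0.33. The replicate block was an alternative. Others were RLE factors, library size alone, the 18S row left out, DESeq2 1.42.0, no filter, a CPM filter (1 or more in 2 or more libraries), limma 3.58.1 on log2(RPKM + 1) and log2(RPKM + 0.1), and each library left out. The members and lists were chosen with earlier results of these data known. Every member was named, and other list genes were named with preference where the groups did not overlap. Other genes named, cell type markers among them, were chosen after their values were seen. Exon lengths and overlaps come from GENCODE M21, coordinates and promoters from RefSeq on GRCm38.p6 (10 of 10 symbols matched, 6 with a promoter). Python 3.11.15 with scipy 1.17.1 was used for intervals.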

Additional observations from a re-analysis of the deposited data

How the results depend on the processing

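Over all tested genes 0 were called, with 438 at an unadjusted p-value under 0.05. DESeq2 called 60 (12 higher, 48 lower, with 1240 adjusted p-values not given), no gene filter 163 (41 higher, 122 lower), library size alone 2, log2(RPKM + 1) 1, log2(RPKM + 0.1) 2 and the replicate block 3. The fit with no gene filter gave a gene's own spread between libraries no weight, so its calls do not reflect that spread. Leaving out 1 library called 13 to 160, in fits where the lone library is assumed to vary like the other group. Of the syndecan, glypican and sulfatase genes 0 were called, 1 by DESeq2 (Sdc4), 3 without a gene filter (Sdc3, Sdc4 and Sulf2) and 0 to 2 with 1 library left out (Sdc3 and Sdc4 without proliferating replicate 1). The replicate block called 0 of them, with log2 fold changes of -3.20 for Sdc4, -2.50 for Sdc3 and -3.17 for Sulf2, and among 46 named genes that were fitted it changed 1 call, that of Gfap, which library size alone, DESeq2, no filter and each of the 4 fits with 1 library left out also called.

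Of these 46 genes, 34 kept their sign in every alternative, Sdc1, Sdc3, Sdc4 and Sulf2 among them. Library size alone turned Sdc2 to -0.36, Gpc4 to -0.10, Gpc6 to -0.37, Hs6st2 to -0.54 and Vcan to -0.10. log2(RPKM + 1) turned Sdc2 to -0.13, Gpc4 to -0.052, Gpc6 to -0.064, Hs6st2 to -0.093 and Vcan to -0.031, and log2(RPKM + 0.1) turned Sdc2 to -0.13, Gpc4 to -0.15, Hs6st2 to -0.11 and Vcan to -0.017. Hs2st1 was 0.0017 without a filter and 0.015 with the replicate block. With 1 library left out the range was -0.18 to 0.38 for Sdc2, -0.67 to 0.21 for Gpc1, -0.69 to 0.66 for Gpc2, -0.68 to 0.63 for Gpc4, -0.65 to 2.23 for Gpc6, -0.52 to 0.59 for Hs2st1, -0.67 to 0.52 for Hs6st1, -0.55 to 1.07 for Hs6st2, -0.90 to 0.44 for Xylt2, -0.79 to 0.026 for Fam20b, -0.78 to 1.16 for Vcan and -1.88 to 1.8 for Tubb3. The CPM filter kept the same genes and tests nothing. The causes of these differences were not tested. Of the syndecan, glypican and sulfatase genes only Sulf1 was too low to test, and 3 counts stand for 0.246 to 0.405 CPM.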
